A study of Homo sapiens with 4 samples.

Results

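The genes described here are those of cellular iron storage and uptake: FTH1 and FTL, which encode the heavy and light subunits of ferritin, TFRC, the transferrin receptor, and IREB2, which encodes iron regulatory protein 2. They were read by poly(A) site sequencing, in which a read marks the junction between an mRNA and its poly(A) tail. Their members are the poly(A) regions of the deposited table that lie in a fixed hg19 window on the gene's strand, and 15 of the 31081 regions of the table were found in this way. FTH1 had 4 of them, FTL 2, TFRC 3 and IREB2 6. The table carries no gene names and no hg19 annotation was used, so the names rest on these windows. All 4 libraries came from DICER(ex5) cells, a hypomorphic DICER line derived from the human colon cancer line HCT116, so every library shares the defect in Dicer, the ribonuclease that matures microRNAs. The design text calls them biological quadruplicates. The series has 1 group and no parental or other control, so the comparisons below are between genes, between poly(A) regions of a gene and between libraries. Whether the line is a single clone was not given in the sources used here, and no marker genes of the line were examined.

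Ferritin is a hollow shell of heavy and light subunits in which iron is stored, and the heavy subunit carries the ferroxidase activity that oxidises iron on entry. The transferrin receptor brings transferrin-bound iron into the cell. Iron regulatory proteins bind iron-responsive elements, stem-loops in mRNAs, when iron is scarce. Binding in the 5' UTR of FTH1 and FTL mRNA blocks translation, whereas binding in the 3' UTR of TFRC mRNA protects it from decay. The elements of TFRC lie upstream of the poly(A) tail, in the part of a transcript whose end is read here.

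The loop of such an element carries the bases CAGUG in RNA. In the RefSeq record of FTL, CAGTG stands at bases 39 to 43 from the transcript start, and the stretch is shown because it holds the loop of the element through which the product of IREB2 acts on FTL. It is written 5' to 3' with CAGTG in capitals and lies on the plus strand at chr19:48965329-48965358 of GRCh38.p14, a later build than the one the read counts use.
FTL: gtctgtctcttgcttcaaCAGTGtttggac
RefSeq entries were matched for 3 of the 4 genes (FTL, TFRC and IREB2). Among these, FTL was the 1 gene with CAGTG on the transcript strand in the first 50 bases, and no other had it on either strand. Of all 35116 entries, 6.48% held CAGTG on the transcript strand of these 50 bases and 12.2% on either strand, so the letters alone do not mark an element.

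The libraries held 5211279, 2163977, 5713530 and 3984278 reads in libraries 1 to 4. A poly(A) read counts a transcript end, so levels are compared between genes as CPM, which are reads scaled to library size, without division by gene length. Libraries 1 and 2 resembled each other, as did libraries 3 and 4, and the labels give no batch or day for this division. It stands beside every value given per library below, and its part in the results was not tested. In a bulk library, a change in RNA per cell and a change in the make-up of the culture cannot be told apart.

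FTL was the most abundant of the 4 genes. It gave 1098, 742, 2033 and 1853 CPM in libraries 1 to 4, a mean of 1431 ± 613 CPM (SD, n = 4). Libraries 3 and 4 were above libraries 1 and 2. The light-chain gene held 26325 reads in all, 0.154% of the table, and 52 of the 17963 loci of the table had a higher mean. A locus is a run of regions on a strand with gaps of at most 5 kb. The 52 include the locus of FTL itself, which joins a region outside the window and held 28832 reads.

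TFRC came next. Its 4 libraries gave 575, 541, 479.6 and 520.5 CPM, with a mean of 529 ± 39.8 CPM (SD, n = 4). These values lay close together, with library 1 the highest and library 3 the lowest. The receptor gene had 8979 reads, and 98.5% of loci had a lower mean level.

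FTH1 gave 455, 438, 265 and 315 CPM in libraries 1 to 4, with a mean of 368 ± 92.7 CPM (SD, n = 4). The heavy-chain gene was highest in libraries 1 and 2, where the light-chain gene was lowest. It held 6087 reads, and 97.5% of loci had a lower mean. Ferritin genes have many processed pseudogenes, and how reads that match several copies were placed was not given in the sources used here, so the levels of FTH1 and FTL are uncertain to that extent.

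IREB2 was the least abundant, with 97.3, 91.0, 105 and 103 CPM and a mean of 99.2 ± 6.37 CPM (SD, n = 4). Its 4 libraries were nearly level. It had 1716 reads, between 197 and 600 per library, and 87.2% of loci had a lower mean. The coefficient of variation between libraries was 6.42% for IREB2 and 7.52% for TFRC, against 25.2% for FTH1 and 42.8% for FTL. Counting error alone gives 7.12% for IREB2 in its smallest library and less in the deeper ones. The spread of IREB2 in CPM was below that figure. It depended on the scaling, since with median-of-ratios size factors the mean was 99.3 ± 9.36 (SD, n = 4). For FTL counting error gives 2.50% in the smallest library.

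**Figure D1:**
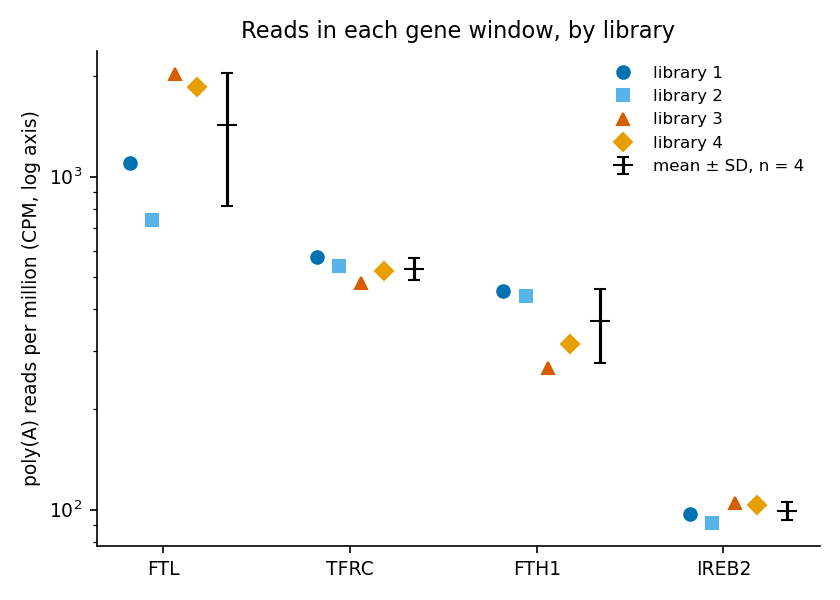
Poly(A) reads in the window of each gene, in CPM on a log axis. Coloured points are libraries 1 to 4 and the black mark and bar are the mean and SD over the 4 libraries. The ranges of the 4 genes do not overlap, and FTL, from 742 to 2033 CPM, spreads the most.

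The order FTL, TFRC, FTH1, IREB2 held in each of the 4 libraries, and the ranges of neighbouring genes did not overlap. TFRC and FTH1 were the closest neighbours. TFRC exceeded FTH1 by a mean of 0.55 ± 0.28 on the log2(CPM + 1) scale (SD, n = 4), with ratios of 1.26, 1.23, 1.81 and 1.65 in libraries 1 to 4. FTL exceeded TFRC by 1.32 ± 0.76 on that scale, and FTH1 exceeded IREB2 by 1.85 ± 0.46 (SD, n = 4). TFRC stood above IREB2 by 2.40 ± 0.18, which was the steadiest of the differences (SD, n = 4). All 6 pairs of genes had the same sign in 4 of 4 libraries. By an exact sign-flip permutation test over the libraries each gave p = 0.13 (two-sided; unchanged by Benjamini-Hochberg adjustment over the 6 pairs), which stands for 2 of the 16 possible sign assignments. It is the smallest p that 4 libraries allow, so none could pass a threshold of 0.05.

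The balance of the 2 ferritin subunit genes varied most. Libraries 1 to 4 gave a ratio of FTL over FTH1 of 2.41, 1.69, 7.66 and 5.89, with libraries 3 and 4 above the others. The mean log2 difference of FTL over FTH1 was 1.88 ± 1.03 (SD, n = 4), the largest SD of the 6 pairs. Of the reads of both genes together, FTL took 70.7%, 62.9%, 88.5% and 85.5% in the same order. The sum of both was 1552, 1179.8, 2299 and 2168 CPM.

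**Figure D2:**
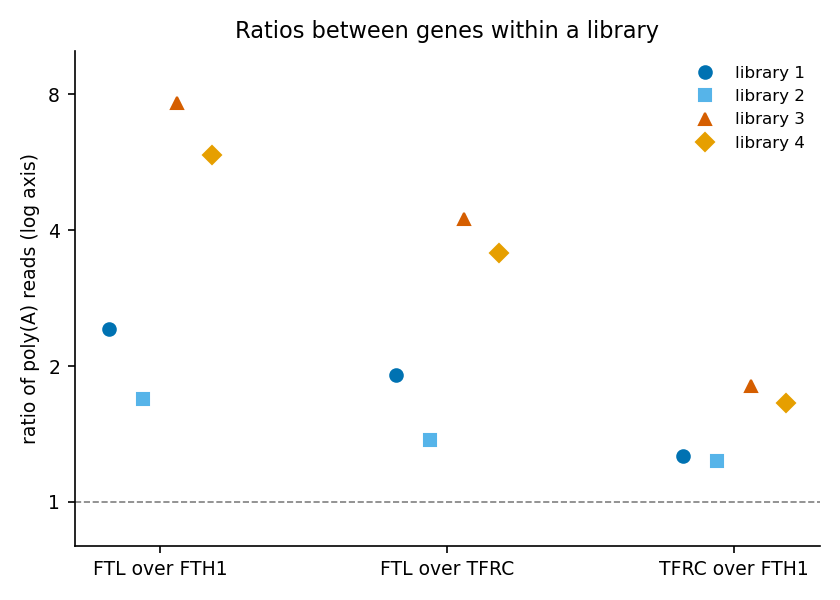
Ratio of poly(A) reads between genes within each library, on a log axis, for FTL over FTH1, FTL over TFRC and TFRC over FTH1. Points are libraries 1 to 4 and the dashed line is a ratio of 1. All points lie above 1, and FTL over FTH1 is 1.69 to 2.41 in the first pair of libraries and 5.89 to 7.66 in the other.

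Whether each gene differed between libraries beyond counting error was tested on counts thinned to the smallest library, by an exact binomial test per locus, two-sided, with Benjamini-Hochberg adjustment over all 17963 loci in each pair of libraries. Such a test compares libraries and not conditions, and it takes reads as independent molecules. The locus of FTL also held a region outside the window of the gene, from 49465040 to 49465071 on the plus strand of chromosome 19. It ends 4516 bases upstream of the start of the nearest region within the window. That region had 200.1, 209.8, 100.3 and 109.7 CPM in libraries 1 to 4 and so was higher in libraries 1 and 2, the reverse of FTL.

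For the other genes the locus lay within the window, and it left out region 3 of TFRC and region 6 of IREB2, which stand too far from the rest. The locus of FTL was called in 5 of the 6 pairs of libraries and that of FTH1 in 4. The thinned reads of the joined FTL locus were 2888 in library 1 and 4563 in library 3, and those of FTH1 were 939 and 569. With each gene window taken as its own locus, a setting chosen after seeing the data, FTL alone had 2436 and 4336 thinned reads in these libraries and was again called in 5 pairs. The directions were opposite in all 4 pairs that set library 1 or 2 against library 3 or 4. The locus of TFRC was called in 3 pairs, with 1262 thinned reads in library 1 and 1003 in library 3 (adjusted p = 9.99e-07 by the exact binomial test). For IREB2, 0 of the 6 pairs were called and 0 had an unadjusted p under 0.05 by this test.

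Calls were common across the table. Of all loci, 25.6% were called for 1 against 3, 24.0% for 1 against 4, 31.7% for 2 against 3 and 29.3% for 2 against 4, the unlike pairs of libraries. In the like pairs the share was 1.59% for 1 against 2 and 0.289% for 3 against 4. Among the 3735 loci with 1000 reads or more, which include these 4, the shares were 35.7%, 33.4%, 48.6% and 46.5% in the unlike pairs, 6.53% for 1 against 2 and 1.31% for 3 against 4. Being called between the unlike libraries was therefore not rare for a locus of this depth. With windows as loci the shares over the table were the same to 3 digits in 5 pairs and 0.29% for 3 against 4. The one call within a like pair was that of FTL between libraries 1 and 2, with 2888 and 2059 thinned reads of the joined locus (adjusted p = 1.41e-28 by the exact binomial test) and 2436 and 1605 of the window alone (adjusted p = 1.89e-35 by that test).

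The fold between the highest and the lowest library was then set beside that of other loci. For the window of FTL it was 2.74-fold, and 96.8% of loci with 1000 reads or more had a smaller fold. The folds of the genes are of their windows, whereas those of the loci are of joined regions. The joined locus of FTL had a smaller ratio than its window, 2.22 in thinned reads of library 3 over library 2. FTH1 had 1.71-fold, with 88.6% of such loci smaller. TFRC and IREB2 had 1.20-fold and 1.15-fold, below the median locus at 1.26-fold. A fold of 2 or more was found at 6.8% of loci with 1000 reads or more and at 18.5% of those with 100 or more. FTL was the 1 gene of the 4 past this fold. Without library 2 its fold was 1.85, so that past 2-fold rests on that library.

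**Figure D3:**
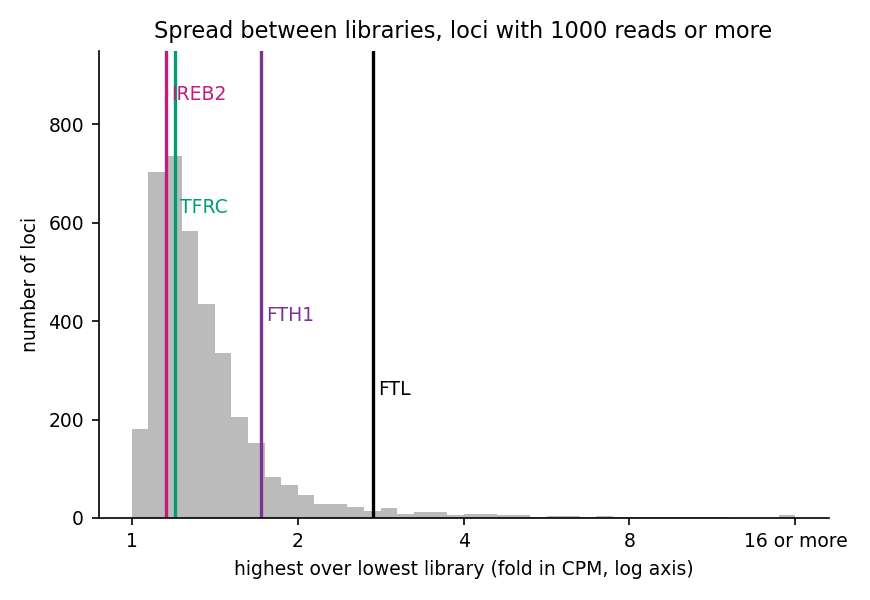
Number of loci with 1000 reads or more by the fold between their highest and lowest library in CPM, on a log axis whose last bin holds folds of 16 or more. Vertical lines mark the windows of the 4 genes: IREB2 and TFRC lie left of the median of 1.26, FTH1 at 1.71 and FTL at 2.74.

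Usage of the poly(A) regions within a gene was examined next. Regions are numbered from the 3' end, so that region 1 is the most 3' one. FTL was read almost wholly at region 1, from 49470095 to 49470164 on the plus strand of chromosome 19 (hg19), which was 70 bases wide. It took 99.7%, 99.8%, 99.96% and 99.9% of the reads of the gene in libraries 1 to 4. The weaker region 2, from 49469587 to 49469609, ended 555 bases upstream and had 16, 3, 5 and 7 reads. Pooled over libraries it took 0.118% of the reads (95% Wilson interval 0.0830% to 0.167%). Intervals cover counting error only, since reads are not shown to be independent molecules.

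TFRC was likewise read mostly at its most 3' region, from 195776146 to 195776220 on the minus strand of chromosome 3. That region took 97.9%, 97.3%, 99.8% and 99.4% of the reads of the gene, with higher shares in libraries 3 and 4. At 75 bases it was the widest of the 15 regions, and 97.4% of all regions in the table were narrower. Region 2, from 195778487 to 195778523, ended 2341 bases upstream and had 16, 9, 2 and 4 reads in libraries 1 to 4. Region 3, from 195802127 to 195802146, ended 25981 bases upstream of region 1 and had 48, 23, 3 and 8 reads. Both had fewer reads in library 3 than in library 2, although library 3 was the deeper.

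IREB2 had the most regions. Region 1, from 78793775 to 78793803 on the plus strand of chromosome 15, took 77.3%, 71.1%, 74.5% and 76.0% of its reads, a mean of 74.7% ± 2.69 (SD, n = 4). The next was region 5, from 78790764 to 78790813 and 2990 bases upstream, with 6.31%, 11.2%, 9.33% and 10.9%. The other 4 regions held between 1.5% and 5.92% of the reads in any library. Regions 4 and 5 ended 57 bases apart, and region 6, from 78781089 to 78781117, lay 12686 bases upstream of region 1. The regulator gene thus had its reads divided over regions that lie far apart. The most 3' region held 75.3% of the reads when pooled (95% Wilson interval 73.2% to 77.3%). Whether the weaker regions are transcript ends was not tested.

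FTH1 differed from the other 3 genes in that its strongest region was not the most 3' one. Region 3, from 61731981 to 61732036 on the minus strand of chromosome 11, took 82.4%, 79.7%, 81.3% and 82.1% of its reads, a mean of 81.4% ± 1.19 (SD, n = 4). Region 1, from 61731739 to 61731780, ended 242 bases further 3' and took 8.61%, 7.59%, 10.6% and 11%. Region 2, from 61731882 to 61731950, took 4.31%, 5.17%, 7.65% and 6.14%. The ends of regions 2 and 3 lay 99 bases apart and those of regions 1 and 2 lay 143 bases apart.

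The most 5' region of FTH1 had the largest fold between libraries of its 4 regions. Region 4, from 61732514 to 61732544 and 775 bases upstream of region 1, had 110, 71, 6 and 10 reads in libraries 1 to 4. As a share of the reads of the gene this was 4.64%, 7.49%, 0.396% and 0.797%. In CPM it was 21.1, 32.8, 1.05 and 2.51, against 375, 349, 216 and 258 CPM at region 3. Region 1 gave 39.1, 33.3, 28.2 and 34.6 CPM and region 2 gave 19.6, 22.6, 20.3 and 19.3 CPM. Libraries 1 and 2 were thus above libraries 3 and 4 at region 4 and, by a smaller fold, at the strong region 3, whereas the libraries overlapped in this respect at regions 1 and 2. Whether region 4 is a cleavage site or a stretch rich in A where the oligo(dT) primer annealed was not tested. No hg19 sequence was used here, so the same holds for the other regions, among them the weak ones of TFRC and IREB2.

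**Figure D4:**
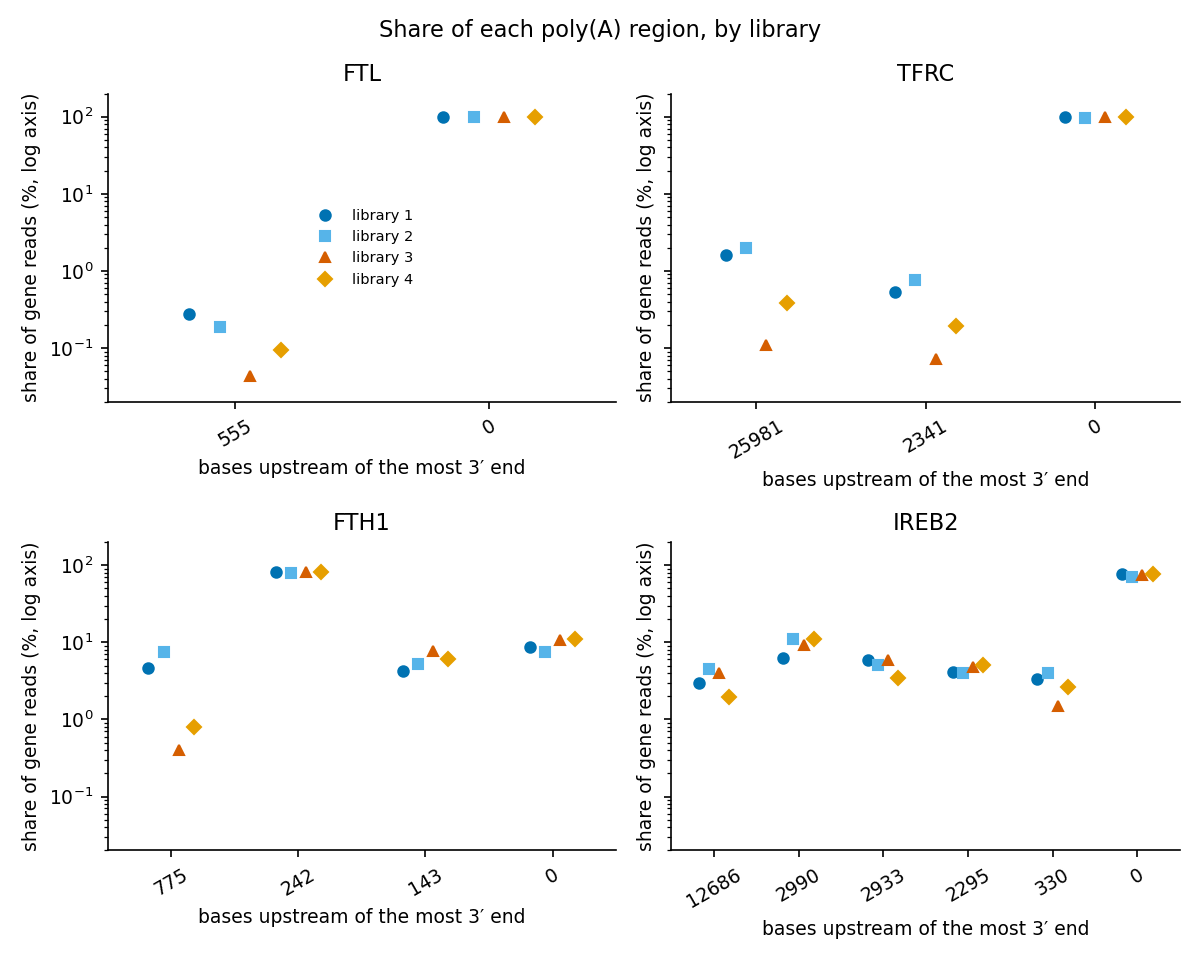
Share of the reads of a gene in each poly(A) region, in percent on a log axis, for libraries 1 to 4. Regions are ordered 5' to 3' from left to right and labelled by the number of bases between their 3' end and the most 3' end of the gene, so the horizontal axis is not to scale. The most 3' region holds the most reads in FTL, TFRC and IREB2, whereas in FTH1 the region 242 bases upstream does.

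Differences in usage between libraries were tested with Fisher's exact test on thinned counts, two-sided, for each region that held at least 5% of the reads of its locus against the other such regions, with Benjamini-Hochberg adjustment over 13464 regions. Under this rule 3 regions of FTH1 and 3 of IREB2 were tested. Region 2 of FTH1 was called in 1 pair of libraries, 1 against 3, with 38 and 47 thinned reads (adjusted p = 0.023 by Fisher's exact test). Regions 1 and 3 of FTH1 were called in 0 pairs, and region 3 had an unadjusted p under 0.05 in 1 pair. The 3 regions of IREB2 were called in 0 pairs, and region 5 had an unadjusted p under 0.05 in 2 pairs. The shares of regions called over the whole table were 9.98%, 9.05%, 15.5% and 13.9% for the unlike pairs (1 against 3, 1 against 4, 2 against 3 and 2 against 4), 0.312% for 1 against 2 and 0.0223% for 3 against 4. Region 1 of FTL was tested under the same rule against the region outside its window and was called in 5 pairs. That region is not among those of FTL, so these calls do not measure usage within the gene. Against region 2, within the window, region 1 was called in 0 pairs.

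With each gene window taken as its own locus and no minimum share for its regions, a setting chosen after seeing the data, all 15 regions could be tested. Region 4 of FTH1 was then called in 4 of 6 pairs, those that set library 1 or 2 against library 3 or 4. Its smallest adjusted p was 4.46e-12 by Fisher's exact test, between libraries 2 and 3, with 71 and 1 thinned reads. Region 3 of TFRC was called in 2 pairs, library 2 against libraries 3 and 4, with 23 thinned reads in library 2 against 2 and 3. Library 1, with 15 thinned reads, was also above libraries 3 and 4 but was not called. An unadjusted p under 0.05 was found in 4 pairs for region 3 of TFRC. Region 1 of TFRC was called in the same 2 pairs. It is tested against regions 2 and 3, so its calls are not separate from those of region 3. Region 2 of FTH1 was again called in 1 pair, 1 against 3 (adjusted p = 0.012 by Fisher's exact test). Regions 1 and 3 of FTH1 and region 2 of TFRC were called in 0 pairs. All 6 regions of IREB2 and both of FTL were called in 0 pairs by Fisher's exact test, with an unadjusted p under 0.05 in 2 pairs for regions 5 and 6 of IREB2 and in 1 for its region 1. Over the whole table this setting called 9.97%, 9.03%, 15.5% and 13.9% of regions in the unlike pairs, 0.29% for 1 against 2 and 0.0223% for 3 against 4. Regions of all other loci kept the 5% minimum, so these shares leave out most regions as weak as region 4 of FTH1. With no share minimum at any locus joined within 5 kb, 2015, 1811, 2933 and 2674 of 18813 regions were called in the unlike pairs. The like pairs then had 44 for 1 against 2 and 4 for 3 against 4.

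**Figure D5:**
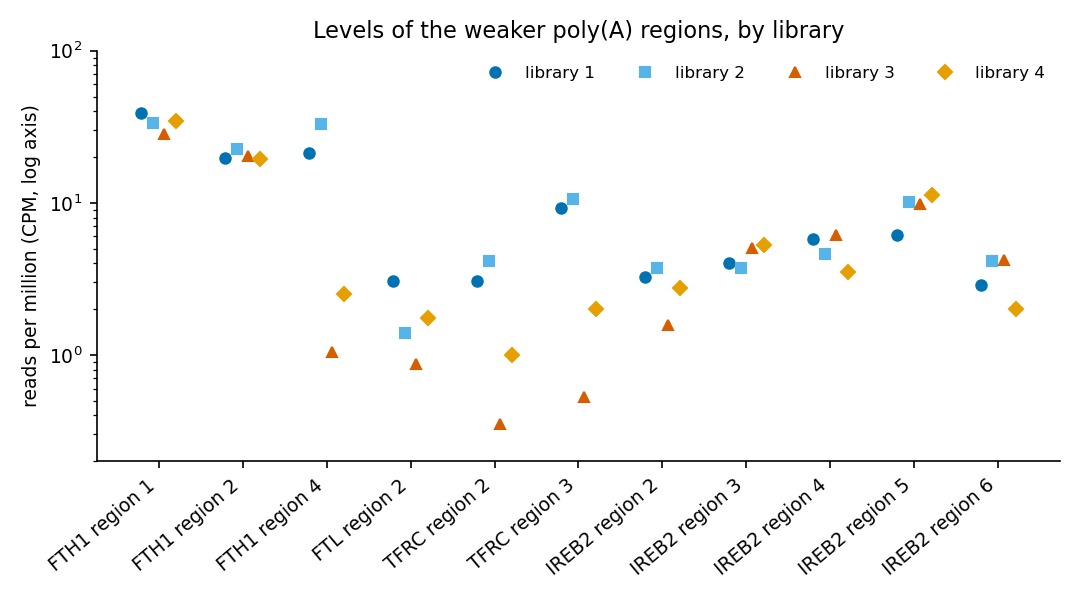
Level of the 11 weaker poly(A) regions in CPM, on a log axis, for libraries 1 to 4. Region 4 of FTH1, regions 2 and 3 of TFRC and region 2 of IREB2 lie lower in libraries 3 and 4 than in libraries 1 and 2. Region 3 of IREB2 lies higher in them. Libraries 3 and 4 gave 1.05 and 2.51 CPM at region 4 of FTH1. They gave 0.350 and 1.00 CPM at region 2 of TFRC and 0.525 and 2.01 CPM at its region 3. At region 2 of IREB2 they gave 1.58 and 2.76 CPM, against 3.26 and 3.70 CPM in libraries 1 and 2.

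Levels of single regions were set beside the table by depth. Of the 7 member regions with under 100 reads, 5 had a fold of 2 or more between their highest and lowest library, against 71.2% of all such regions. Of the 4 with 100 to under 1000 reads, 1 had such a fold, region 4 of FTH1, against 26.1%. Of the 4 with 1000 reads or more it was region 1 of FTL alone, against 9.18%. The first 2 counts are near the shares of the table, and the last rests on 1 region. The fold at region 4 of FTH1 was 31.2, from 32.8 CPM in library 2 and 1.05 CPM in library 3, and 97.2% of regions with 100 to under 1000 reads had a smaller one. At region 1 of FTL the fold was 2.75, with 95.3% of regions with 1000 reads or more below it.

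The loci whose levels moved most like each gene were found by the distance between centred log2(CPM + 1) profiles over the 4 libraries, among the 4343 loci that reached 100 reads in all libraries. With 4 points many loci lie near, and the loci carry no gene name. The closest to FTL was a locus at 132241526 to 132241568 on chromosome 2 (minus strand), with 82.7, 56.8, 156.6 and 136.3 CPM, and the next was at 70520104 to 70521027 on chromosome X (plus strand). FTH1 was closest to a locus at 139956571 to 139956591 on chromosome 9 (minus strand), with 162.0 CPM in library 1 and 100.3 CPM in library 3, and to one at 71870179 to 71873756 on chromosome 10 (minus strand). TFRC was closest to loci at 101768597 on chromosome X (minus strand) and 98864818 on chromosome 8 (plus strand), and IREB2 to loci at 38120626 on chromosome 8 and 6650771 on chromosome 1 (minus strand each). The distances were 0.06 and 0.07 for FTL, 0.08 and 0.08 for FTH1, and 0.01 to 0.02 for TFRC and IREB2, on the log2 scale. The profiles of TFRC and IREB2 were the flattest of the 4, so their smaller distances are not read as a closer likeness. In CPM the spread of IREB2 was below the counting error of its smallest library, so its closest loci may match counting error alone.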

How the data were processed

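The authors deposited 1 table of unnormalised read counts at poly(A) regions for 4 libraries, per the file headers. Bowtie2 2.2.5 and hg19 are named in the submitters' processing notes. How reads were joined into regions, and whether PCR duplicates were removed with the degenerate primer bases, was not given in the sources used here. Positions are printed as deposited. The files pair no region with a gene name, and genes were taken from fixed windows. The other genes of the iron pathway were to be given only with an hg19 annotation and were not analysed here. Members and lists were chosen with earlier results of these data known.

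Counts were scaled to library totals (CPM), and a pseudocount of 1 was added before log2. Libraries held 2163977 to 5713530 reads and were thinned to the smallest for tests between libraries. Regions needed 10 reads, 5% of their locus and a locus of 100 reads. Loci joined regions within 5 kb. Scripts were tested on simulated data (Python 3.11.15, numpy 2.4.6, pandas 2.3.3, scipy 1.17.1, matplotlib 3.10.9). All regions in the windows were named, and for each gene the 2 loci with the closest profile. Alternatives were other size factors, pseudocounts, minimums, joining distances and leaving out each library. The libraries are called biological replicates, but no label names separate cultures, so SDs may partly measure technical spread.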

Additional observations from a re-analysis of the deposited data

Results flagged for a closer look

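Of 40 values (gene levels, region levels, region shares and differences between genes), 0 had a library further from the other 3 than Dixon's 95% criterion for 4 libraries allows. Chance flags about 1 in 20 independent values, and these are not independent, since shares of regions of a gene depend on each other. The criterion looks for 1 library apart from the other 3. It can hardly flag a value that follows the division of the libraries into like pairs, so 0 flags do not show even libraries.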

How the results depend on the processing

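The order of the 4 genes and the sign of all 6 differences held under median-of-ratios size factors, pseudocounts of 0.1 and 10, the strongest region alone and without each library (p = 0.25, the smallest that 3 libraries allow in the exact test). IREB2 had 74.2 CPM from its strongest region alone. Without regions under 5%, the share of the strongest region was 84.3% for FTH1, 100% for FTL and TFRC and 83.7% for IREB2. With ends within 100 bases merged it was 87.2% for FTH1. The fold between highest and lowest library, each library left out in turn, ranged from 1.44 to 1.71 for FTH1, 1.85 to 2.74 for FTL and 1.10 to 1.20 for TFRC. For IREB2 it ranged from 1.08 to 1.15. With median-of-ratios factors TFRC had 1.13 and IREB2 had 1.21, the reverse of their order in CPM. Loci past 2-fold were 6.80% with 1000 reads or more.

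Unthinned counts hold more reads and gave more calls. For usage they called 89 regions between libraries 1 and 2, 3107 between 1 and 3, 2419 between 1 and 4 and 30 between 3 and 4. For level they called 496, 8169, 7461 and 164 loci in the same pairs. Joined within 1 kb, fewer regions were tested (9847), and 865 were called between libraries 1 and 3, 795 between 1 and 4, 1374 between 2 and 3 and 0 between 3 and 4. With thinned counts these were 42, 1344, 1218, 2084 and 3 regions (1 against 2, 1 against 3, 1 against 4, 2 against 3 and 3 against 4) and 285, 4595, 4310 and 52 loci. Region 3 of FTH1 was called in 3 pairs with unthinned counts, against 0 with thinned ones. In level, unthinned counts called the locus of FTL in 6 of 6 pairs, so also between libraries 3 and 4, and that of FTH1 in 5. With thinned counts these were 5 and 4 pairs. With a 10% minimum no region of the 4 genes could be tested. No paired analysis was possible because the series has 1 group. A region such as FTL region 2, with 3 to 16 reads per library, allows no firm statement on its level.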
